A study of Mus musculus with 8 samples.

Results

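The translation initiation factors of the mouse were followed as the 54 genes whose symbol starts with Eif and a digit, leaving out Eif2ak2, among the 21878 genes of the deposited table. They were grouped by factor into eIF1 with eIF1A, eIF2, its exchange factor eIF2B, the eIF2 kinases, eIF3, eIF4A with eIF4B and eIF4H, eIF4E with its binding proteins, eIF4G, eIF5 with eIF5A and eIF5B, and eIF6. RNA was sequenced in 4 libraries labelled Ad-KLK8 and 4 labelled Ad-control, all named pulmonary endothelial cells of lung. The labels do not expand Ad, name no strain, age or time, and do not say whether the replicates were separate cultures or animals, so a p-value reflects the spread among these libraries alone. The series is about a serine protease, kallikrein-related peptidase 8, in lung endothelium injured by endotoxemia. No endotoxin treatment is named in these labels.

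The gene of the treatment's name did not separate the groups. Klk8 was at 1159, 3263, 1354 and 1276 RPKM (reads per kilobase of gene, scaled to the library's reads) in libraries labelled Ad-KLK8, against 1135, 1403, 1232 and 1422 RPKM in libraries labelled Ad-control (two-sided exact permutation test, p = 0.657, with 0.0286 the smallest p that 4 against 4 allows). Without Ad-KLK8 library 2, the difference in mean log2(RPKM + 1) was -0.036, against 0.31 with all libraries. Every direction below therefore rests on the libraries' labels. That same library stood apart from the other 3 of its group, with a chi-square over genes, divided by its degrees of freedom, of 17.98 to 19.6 against them, where those 3 differed among themselves by 2.12 to 2.63 and Ad-control libraries 1 and 3 by 2.45. The other 5 pairs of Ad-control libraries differed by 6.32 to 10.52, so Ad-control libraries 2 and 4 also lay off the rest of their group, though less far. The values went back to whole reads, of which at least 17775433 to 18692134 per Ad-KLK8 library and 15758696 to 16747740 per Ad-control library fell on genes. Of 10 endothelial markers, 8 were under 0.5 RPKM in every library, and Cdh5, the cadherin of endothelial junctions, had 3 reads in all Ad-KLK8 libraries together and 24 in all Ad-control libraries. Summed endothelial markers came to 4.70 to 6.32 RPKM in Ad-KLK8 and 5.93 to 7.20 RPKM in Ad-control libraries. Most of that sum was Egfl7, at 4.59 ± 0.651 RPKM in Ad-KLK8 libraries and 4.54 ± 0.514 RPKM in Ad-control libraries (SD, n = 4 each), with no call, while Kdr, a VEGF receptor, fell (0.622 ± 0.255 RPKM in Ad-KLK8 libraries and 1.43 ± 0.191 RPKM in Ad-control libraries; log2 change -0.60 ± 0.11 SE, adjusted p = 6.67e-04). The labelled cell type's defining markers were thus nearly absent apart from Egfl7 and Kdr.

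Initiation brings the ribosome to the start codon of an mRNA. eIF2 carries the initiator methionyl-tRNA as a complex with GTP, and eIF1, eIF1A, eIF3 and eIF5 help to load that complex on the small ribosomal subunit. eIF4E binds the mRNA's cap, eIF4G bridges it to eIF3 and to the helicase eIF4A, and the 4E-binding proteins (4E-BPs) block that bridge unless mTORC1 phosphorylates them. After each round eIF2B reloads eIF2 with GTP, and the eIF2 kinases stop this by phosphorylating the alpha subunit of eIF2, which lowers general initiation while Atf4 mRNA is translated more.

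Most initiation factor mRNAs were lower in Ad-KLK8 than in Ad-control libraries. Of the 53 genes that averaged at least 0.5 RPKM, 42 fell and 2 rose, Eif3f and Eif4ebp2, at an adjusted p under 0.05 (limma on log2(RPKM + 1), two-sided, adjusted after Benjamini and Hochberg over 11998 genes). Calls in either direction covered 77.7% of all tested genes. The falls made up 79.2% of the tested members, against 52% of all tested genes (6243), and the rises 3.77%, against 25.7% (3079). The median log2 change was -0.47 over the members and -0.19 over all tested genes. On the log2(RPKM + 1) scale, called falls of at least 2-fold were 2 among the members, Eif1ad and Eif5, against 1182 or 9.85% of all tested genes. The mean RPKM of Eif4enif1 also fell by 51.2%, more than 2-fold, and after median-of-ratios scaling Eif5 no longer reached 2-fold (log2 change -0.86). The remaining member, Eif4e1b, an eIF4E relative of oocytes, had 0 reads in every library, which allows up to 0.160 to 0.169 RPM (3 reads over the library's total) in Ad-KLK8 and 0.179 to 0.190 RPM in Ad-control libraries, counting error only.

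The median over all tested genes was also shifted downward, and the cause of that shift was not tested. Median-of-ratios scaling, which sets the typical gene of every library level, moved the median change of all genes up by 0.19 on the log2 scale. The members then had 32 falls and 10 rises with a median of -0.26, or 60.4% and 18.9% of them, against 38.7% and 38.4% of all tested genes (77.1% in either direction). All 32 had fallen before scaling too, and both rises stayed. One gene changed its call's direction, Eif3m, which was lower by the deposited values and higher after scaling. The summed level of the 53 members was 3052 to 3329 RPKM in Ad-KLK8 libraries, with library 2 highest, and 4218 to 4269.7 RPKM in Ad-control libraries. Ad-KLK8 library 2 held its group's highest value in 34 of the 53 genes, and without it 3 members rose and 42 fell.

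Markers of cell state moved between the same groups. All 7 proliferation markers fell, summing to 48.6 to 58.9 RPKM in Ad-KLK8 and 346 to 377 RPKM in Ad-control libraries. All 8 fibroblast markers rose, to sums of 3818 to 3942 RPKM in Ad-KLK8 libraries, against 1676 to 1896 RPKM in Ad-control libraries. Of 5 mesothelial markers, 4 rose and 1 fell, with sums of 541 to 590.4 RPKM in Ad-KLK8 and 161 to 209 RPKM in Ad-control libraries. The 1 that fell, Krt19, averaged 0.758 RPKM in Ad-KLK8 and 22.5 RPKM in Ad-control libraries (log2 change -3.68 ± 0.21 SE). Of 5 leukocyte markers, 3 were tested and 2 fell, with sums of 14.2 to 17.2 RPKM in Ad-KLK8 and 23.2 to 43.2 RPKM in Ad-control libraries. Epithelial markers summed to at most 2.33 RPKM in Ad-KLK8 and 3.79 RPKM in Ad-control libraries, with Scgb1a1 at 0 throughout. The part of these markers in the results was not tested. In bulk RNA, fewer cells of a type and less RNA per cell cannot be told apart.

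**Figure D1:**
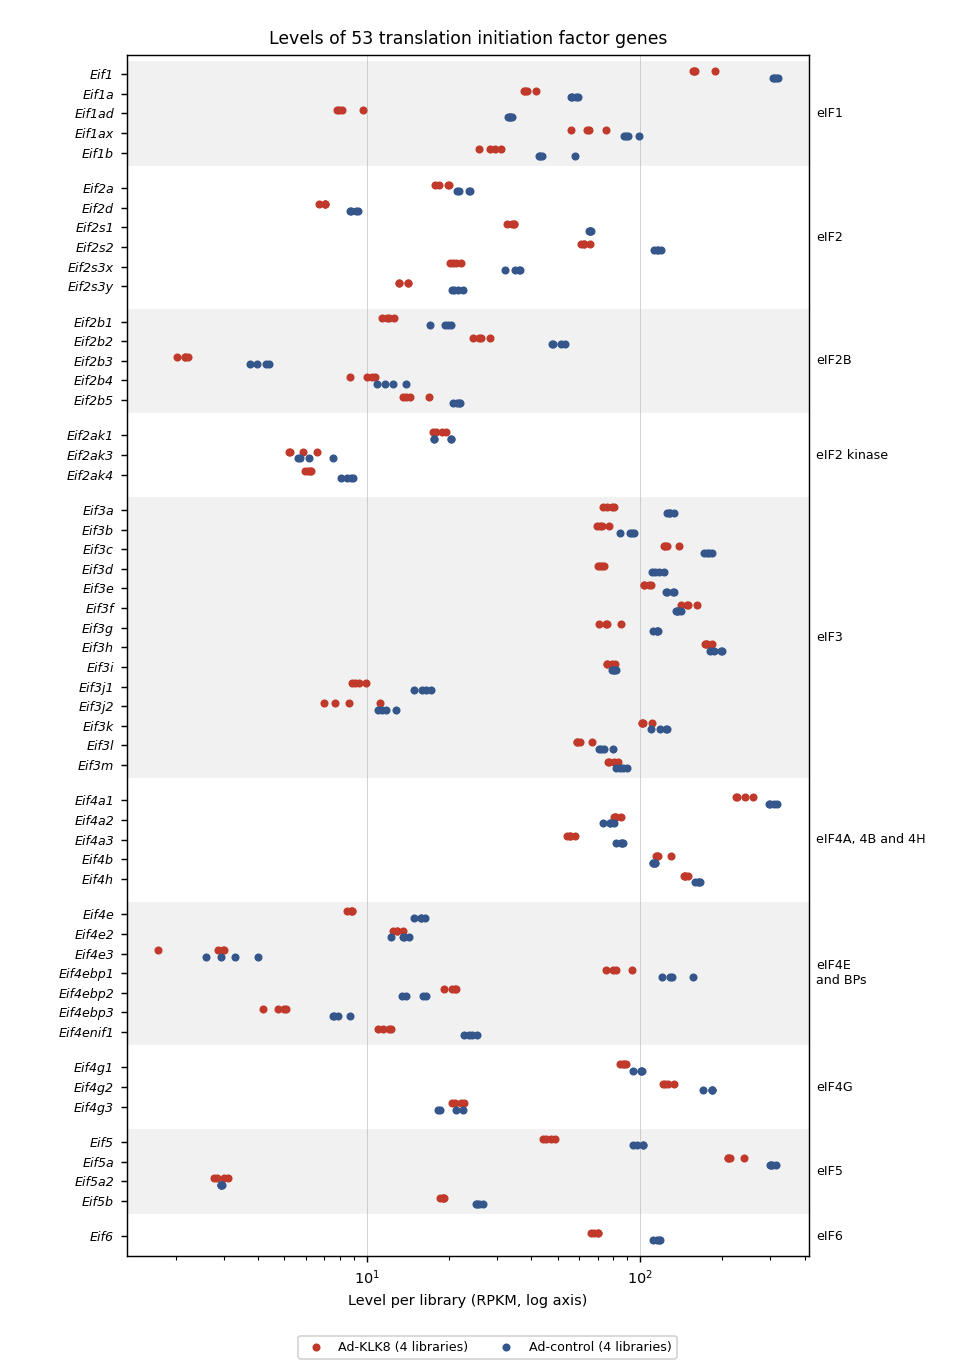
Level in RPKM (log axis) of the 53 tested initiation factor genes by factor, with a point for each of the 4 Ad-KLK8 and 4 Ad-control libraries. In 38 genes every Ad-KLK8 point lies left of every Ad-control point, and in 4 genes, Eif3f, Eif4a2, Eif4b and Eif4ebp2, every Ad-KLK8 point lies right of them.

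The Ad-KLK8 values lay wholly below the Ad-control values in 38 of 53 members (71.7%), against 49.1% of all tested genes, and wholly above them in 4, against 23.1% of all tested genes. The 11 others overlapped. Of the 42 that fell, 4 overlapped, all subunits of eIF3 (Eif3h, Eif3j2, Eif3k and Eif3m).

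eIF1 and eIF1A keep the scanning ribosome open until it meets a start codon. All 5 genes of this group fell, by the deposited values and after median-of-ratios scaling, and the median was -0.68 on the log2 scale. Beside this, 52% of all tested genes fell, with a median of -0.19, and 38.7% fell after scaling. Eif1ad, named for a domain it shares with eIF1A, had the largest fall of all members. It was at 7.92, 9.70, 8.14 and 7.79 RPKM in Ad-KLK8 libraries 1 to 4, against 33.4, 32.9, 33.5 and 34.1 RPKM in Ad-control libraries 1 to 4. Its mean fell by 74.9% (log2 change -1.88 ± 0.06 SE, adjusted p = 2.45e-09), and no Ad-KLK8 library came near an Ad-control library. Eif1, the factor that guards against wrong start codons, was at 157, 188, 156 and 159.6 RPKM in Ad-KLK8 libraries 1 to 4, against 313, 321, 310.0 and 305 RPKM in Ad-control libraries 1 to 4 (log2 change -0.92 ± 0.06 SE, adjusted p = 1.89e-07). Library 2 was the highest of the Ad-KLK8 group and still far under every Ad-control library. The paralog Eif1b changed by -0.68, and the eIF1A genes Eif1a and Eif1ax by -0.55 and -0.49 on the log2 scale. How reads were assigned between close copies (Eif1 and Eif1b, Eif1a and Eif1ax, Eif2s3x and Eif2s3y, Eif3j1 and Eif3j2, Eif4a1 and Eif4a2, Eif5a and Eif5a2) was not stated in the sources used here, so their separate values are uncertain.

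The promoter of Eif1ad is shown because this gene fell most. It is given from 250 bases before to 50 bases after the RefSeq gene start (GRCm38.p6, chr19:5366563-5366862, plus strand), in the gene's direction. Capitals mark 2 matches to CCGGAAG, the core letters of ETS factor sites, both on the reverse strand.
Eif1ad: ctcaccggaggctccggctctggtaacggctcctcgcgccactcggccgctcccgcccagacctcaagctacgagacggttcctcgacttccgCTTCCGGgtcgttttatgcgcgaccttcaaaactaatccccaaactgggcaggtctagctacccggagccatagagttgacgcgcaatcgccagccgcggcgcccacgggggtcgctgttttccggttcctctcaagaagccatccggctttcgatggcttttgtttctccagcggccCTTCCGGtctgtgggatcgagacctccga

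All 4 genes for the subunits of eIF2 fell, and did so under every scaling. The share of all tested genes that fell was 52%, and 38.7% after median-of-ratios scaling. Eif2s1, the alpha subunit that the kinases phosphorylate, was at 34.6, 34.7, 34.0 and 32.6 RPKM in Ad-KLK8 libraries 1 to 4, against 65.8, 66.4, 65.9 and 64.9 RPKM in Ad-control libraries 1 to 4 (log2 change -0.93 ± 0.03 SE, adjusted p = 5.09e-09). Eif2s2, the beta subunit that contacts eIF5 and eIF2B, was at 61.0, 62.4, 65.5 and 62.4 RPKM in Ad-KLK8 libraries 1 to 4, against 116, 116, 113 and 119 RPKM in Ad-control libraries 1 to 4 (log2 change -0.87 ± 0.04 SE, adjusted p = 1.04e-08). In both genes the groups were separated by far more than their spread, and the beta-to-alpha ratio of RPKM within a library overlapped between the groups, at 1.77, 1.80, 1.93 and 1.91 in Ad-KLK8 and 1.77, 1.74, 1.71 and 1.84 in Ad-control libraries. The gamma subunit, which holds GTP and the initiator tRNA, has an X-linked and a Y-linked gene in the mouse. Eif2s3x was at 21.2, 22.1, 20.7 and 20.3 RPKM in the Ad-KLK8 libraries and 34.9, 36.1, 36.3 and 32.1 RPKM in the Ad-control libraries (log2 change -0.70 ± 0.05 SE, adjusted p = 3.21e-07). Eif2s3y was at 13.1, 13.2, 14.2 and 14.1 RPKM in the Ad-KLK8 libraries and 22.5, 20.6, 20.9 and 21.7 RPKM in the Ad-control libraries (log2 change -0.61 ± 0.05 SE, adjusted p = 5.00e-07). Both gamma genes were thus expressed in every library and were lower in every Ad-KLK8 library. Eif2a and Eif2d, which deliver tRNA to the ribosome outside the eIF2 complex and are not its subunits, fell by 0.24 and 0.33 on the log2 scale. The call for Eif2d was lost with quantile scaling, and after median-of-ratios scaling that for Eif2a was lost (-0.030, adjusted p = 0.628).

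The 5 subunit genes of eIF2B fell as well, with a median of -0.64 on the log2 scale. Eif2b2, the beta subunit of its regulatory part, was at 25.8, 24.6, 28.2 and 26.1 RPKM in Ad-KLK8 libraries 1 to 4, against 51.6, 47.8, 48.0 and 53.0 RPKM in Ad-control libraries 1 to 4 (log2 change -0.91 ± 0.05 SE, adjusted p = 7.36e-08). Eif2b3, the gamma subunit of its catalytic part, was at 2.16, 2.17, 2.21 and 2.02 RPKM in Ad-KLK8 libraries 1 to 4, against 4.39, 3.75, 4.30 and 3.98 RPKM in Ad-control libraries 1 to 4 (log2 change -0.70 ± 0.06 SE, adjusted p = 1.38e-06). In both, every Ad-KLK8 library lay below every Ad-control library. The alpha subunit gene Eif2b1 changed by -0.64 and Eif2b5, which encodes the catalytic epsilon subunit, by -0.52. Eif2b4, the delta subunit, changed least, by -0.27 (adjusted p = 0.0104), and its call was lost after median-of-ratios scaling (-0.066, adjusted p = 0.457).

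Among the 3 eIF2 kinases followed here, which leave out Eif2ak2, 1 fell and none rose. Of all tested genes 52% fell and 25.7% rose. Eif2ak4 (GCN2), which senses uncharged tRNA, was at 6.28, 6.09, 6.21 and 5.95 RPKM in Ad-KLK8 libraries 1 to 4, against 8.46, 8.07, 8.78 and 8.89 RPKM in Ad-control libraries 1 to 4 (log2 change -0.42 ± 0.05 SE, adjusted p = 1.22e-05), with no overlap. Eif2ak1 (HRI), the heme-regulated kinase, was at 17.99, 19.5, 18.9 and 17.5 RPKM in Ad-KLK8 libraries 1 to 4, against 20.4, 17.7, 20.3 and 17.7 RPKM in Ad-control libraries 1 to 4 (log2 change -0.038 ± 0.06 SE, adjusted p = 0.577). Eif2ak3 (PERK), the kinase of the endoplasmic reticulum, was at 5.205, 6.58, 5.24 and 5.83 RPKM in Ad-KLK8 libraries 1 to 4, against 5.62, 7.52, 5.70 and 6.15 RPKM in Ad-control libraries 1 to 4 (log2 change -0.11 ± 0.09 SE, adjusted p = 0.304). These last genes overlapped between the groups. After median-of-ratios scaling, Eif2ak1 was called higher (0.17, adjusted p = 0.0152) and Eif2ak3 was not called (0.080, adjusted p = 0.456).

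Of 8 other tested genes that control or answer eIF2 phosphorylation, 6 fell and 2 rose, with 3 falls and 2 rises after median-of-ratios scaling. The background shares are 52% lower and 25.7% higher over all tested genes, and 38.7% and 38.4% after scaling. Ppp1r15a (GADD34), the stress-induced subunit that directs a phosphatase to eIF2, was at 24.7, 21.9, 23.5 and 24.0 RPKM in Ad-KLK8 libraries 1 to 4, against 73.2, 72.8, 69.2 and 77.4 RPKM in Ad-control libraries 1 to 4 (log2 change -1.60 ± 0.05 SE, adjusted p = 1.71e-09). Atf4, the transcription factor of the integrated stress response, was at 108, 134, 109 and 108 RPKM in Ad-KLK8 libraries, against 266, 248, 254 and 256 RPKM in Ad-control libraries (log2 change -1.15 ± 0.07 SE, adjusted p = 1.03e-07). Both were separate from Ad-control in every library and kept their calls after scaling (log2 changes -1.38 and -0.93). The rises, named after their values were seen, were Dnajc3 (p58IPK), an inhibitor of eIF2 kinases, at 33.7 ± 0.726 RPKM in Ad-KLK8 libraries and 20.4 ± 1.65 RPKM in Ad-control libraries (log2 change 0.70 ± 0.06 SE, adjusted p = 8.31e-07), and Impact, an inhibitor of GCN2 activation, at 19.7 ± 0.644 RPKM in Ad-KLK8 libraries and 14.7 ± 1.32 RPKM in Ad-control libraries (log2 change 0.40 ± 0.06 SE, adjusted p = 1.19e-04). Both were also called higher after scaling (0.92 and 0.61). These are mRNA levels, and neither the phosphorylation of eIF2 nor protein was measured.

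eIF3 is the largest initiation factor and binds the small ribosomal subunit, and its genes moved unevenly. Of 14 genes, 12 fell, Eif3f rose and Eif3i was not called, with a median of -0.30 on the log2 scale. After median-of-ratios scaling 6 fell, 3 rose (Eif3f, Eif3i and Eif3m) and 5 were not called, with a median of -0.084. Among all tested genes 52% fell and 25.7% rose, with a median of -0.19, and after scaling 38.7% fell and 38.4% rose. Eif3a, the scaffold subunit, was at 73.5, 80.1, 79.1 and 75.8 RPKM in Ad-KLK8 libraries 1 to 4, against 127, 134, 126 and 129 RPKM in Ad-control libraries 1 to 4 (log2 change -0.73 ± 0.04 SE, adjusted p = 5.58e-08). Eif3j1, a loosely bound subunit, was at 9.36, 8.85, 9.96 and 9.10 RPKM in Ad-KLK8 libraries 1 to 4, against 16.01, 16.5, 17.2 and 14.9 RPKM in Ad-control libraries 1 to 4 (log2 change -0.73 ± 0.05 SE, adjusted p = 5.43e-07). In contrast, Eif3f was at 149.7, 162, 142 and 149 RPKM in Ad-KLK8 libraries 1 to 4, against 137, 141, 136 and 138 RPKM in Ad-control libraries 1 to 4 (log2 change 0.12 ± 0.04 SE, adjusted p = 0.0276). The lowest Ad-KLK8 value of Eif3f lay just above the highest Ad-control value, and its rise lost its call on leaving out Ad-KLK8 library 1 or Ad-control library 1 or 3, under TPM or quantile scaling, and with closely similar libraries averaged. A ratio within a library does not depend on scaling between libraries. The Eif3f-to-Eif3a ratio of RPKM was 2.04, 2.02, 1.79 and 1.96 in Ad-KLK8 libraries 1 to 4, against 1.07, 1.06, 1.08 and 1.07 in Ad-control libraries 1 to 4, so the transcripts of these subunits changed unequally. The pair was chosen after its values were seen. Its ratios could not overlap, because every Ad-KLK8 value lay above Ad-control for Eif3f and below it for Eif3a.

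The scaffold and its neighbours, which carry PCI or MPN domains, spanned the whole range of the complex, from Eif3a at -0.73 to Eif3f at 0.12. Between them, Eif3c changed by -0.47, Eif3e by -0.28, Eif3l by -0.27, Eif3k by -0.19, Eif3h by -0.11 and Eif3m by -0.11 on the log2 scale, and all 6 fell by the deposited values. Only Eif3c of these kept its fall after median-of-ratios scaling, where Eif3h, Eif3k and Eif3m came out at 0.11, 0.024 and 0.10. With quantile scaling all of these but Eif3m kept their falls. Eif3h and Eif3m were close to the threshold (adjusted p = 0.0373 and 0.036) and lost their calls when single libraries of either group were left out. In the part that holds subunits b, g and i, Eif3g changed by -0.58 and Eif3b by -0.33, and both fell under median-of-ratios scaling too. Eif3i, the WD-repeat subunit, averaged 77.9 ± 2.47 RPKM in Ad-KLK8 libraries and 80.3 ± 1.26 RPKM in Ad-control libraries (SD, n = 4 each; log2 change -0.044 ± 0.04 SE, adjusted p = 0.285). The cap-binding subunit gene Eif3d changed by -0.68 and Eif3j2, the copy of Eif3j1, by -0.42, with one Ad-KLK8 library, number 2, at 11.2 RPKM, inside the Ad-control range of 11.0 to 12.8 RPKM. The call of Eif3j2 was lost after median-of-ratios scaling (-0.22).

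The Eif3f promoter is shown as that of the subunit gene that rose (GRCm38.p6, chr7:108934165-108934464, plus strand, same window). Capitals mark 1 CACGTG, the E-box bound by MYC and its relatives, and 2 CCAAT boxes.
Eif3f: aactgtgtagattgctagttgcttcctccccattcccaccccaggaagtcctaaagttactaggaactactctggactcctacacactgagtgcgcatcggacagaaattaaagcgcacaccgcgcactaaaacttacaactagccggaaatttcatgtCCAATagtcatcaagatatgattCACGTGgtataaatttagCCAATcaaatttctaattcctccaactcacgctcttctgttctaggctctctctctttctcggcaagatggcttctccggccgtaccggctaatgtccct

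The helicase eIF4A unwinds the mRNA's leader, and eIF4B and eIF4H stimulate it. Of these 5 genes, 3 fell and none rose by the deposited values, against 2 falls and 2 rises after median-of-ratios scaling. The shares over all tested genes were 52% lower and 25.7% higher, and 38.7% and 38.4% after scaling, so the scaled counts were near the background. Eif4a3, whose product sits in the exon junction complex, was at 55.3, 57.7, 53.9 and 55.5 RPKM in Ad-KLK8 libraries 1 to 4, against 87.0, 85.5, 86.0 and 81.9 RPKM in Ad-control libraries 1 to 4 (log2 change -0.61 ± 0.04 SE, adjusted p = 1.19e-07). Eif4a1, the main helicase, was at 226, 259, 242 and 225 RPKM in Ad-KLK8 libraries 1 to 4, against 309, 297, 318 and 299.6 RPKM in Ad-control libraries 1 to 4 (log2 change -0.36 ± 0.05 SE, adjusted p = 9.67e-05). Both fell under either scaling. Eif4a2, its close paralog, was at 80.9, 80.5, 85.0 and 81.7 RPKM in Ad-KLK8 libraries 1 to 4, against 80.3, 77.4, 77.6 and 73.2 RPKM in Ad-control libraries 1 to 4 (log2 change 0.088 ± 0.04 SE, adjusted p = 0.0603). Its Ad-KLK8 values lay just above the Ad-control values without passing the threshold, which it passed on leaving out Ad-KLK8 library 2 or Ad-control library 1, and after median-of-ratios scaling it was called higher (0.31). The Eif4a2-to-Eif4a1 ratio of RPKM was 0.358, 0.311, 0.351 and 0.364 in Ad-KLK8 libraries 1 to 4, against 0.260, 0.261, 0.244 and 0.244 in Ad-control libraries 1 to 4. These ratios could not overlap, because every Ad-KLK8 value lay above Ad-control for Eif4a2 and below it for Eif4a1. Eif4b averaged 119 ± 7.26 RPKM in Ad-KLK8 libraries and 113 ± 1.254 RPKM in Ad-control libraries (SD, n = 4 each; log2 change 0.076 ± 0.05 SE, adjusted p = 0.148), and it was called higher after median-of-ratios scaling (0.29). Eif4h fell by 0.15 on the log2 scale (adjusted p = 0.00161) but came out at 0.064 after that scaling, with no call. With quantile scaling Eif4h kept its fall (-0.19) and Eif4b was not called (0.075).

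**Figure D2:**
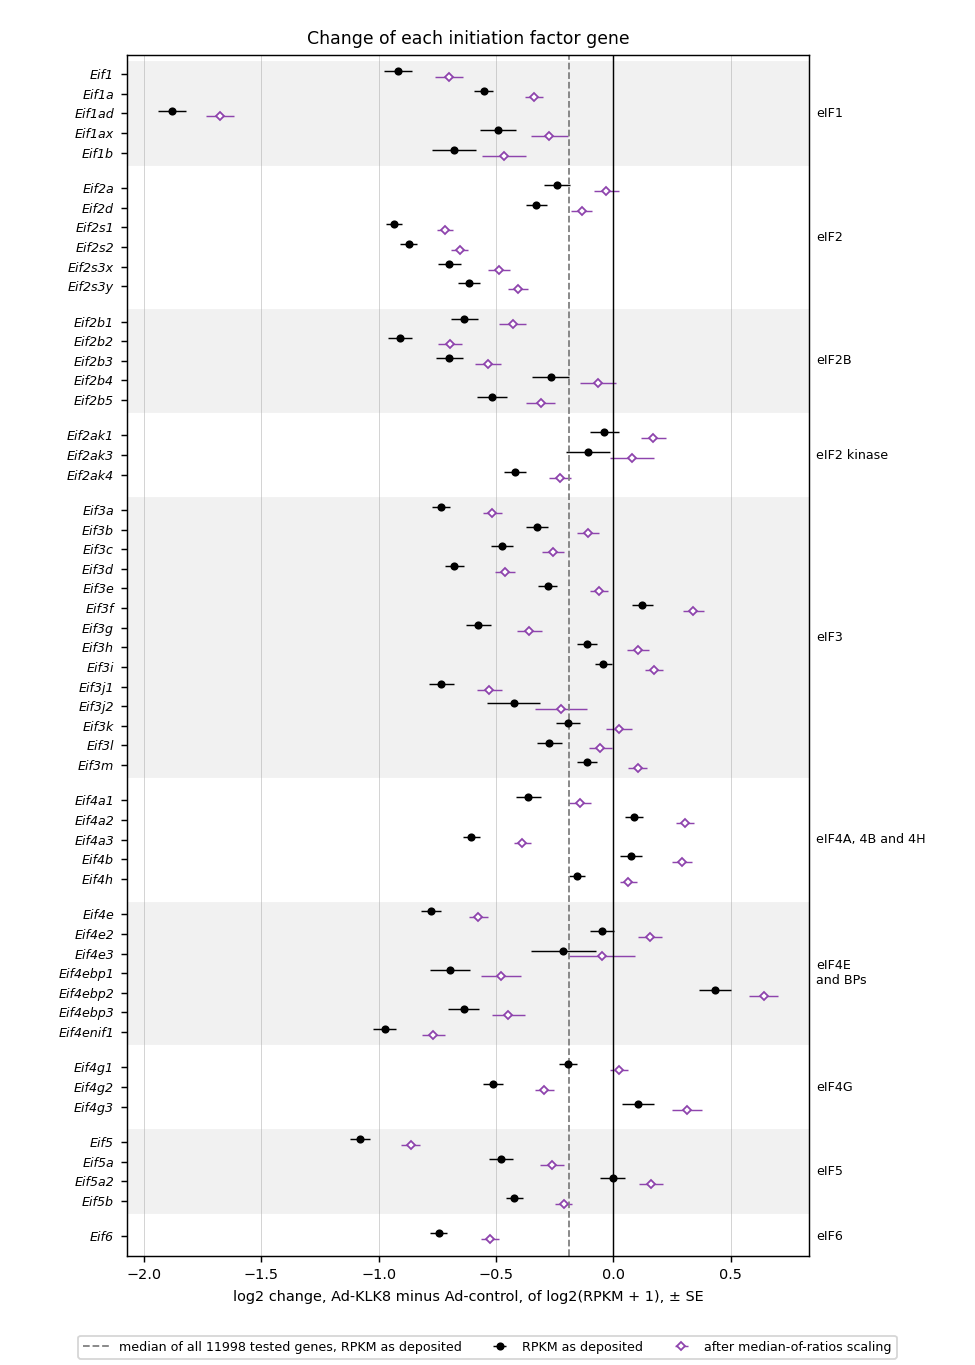
Log2 change (Ad-KLK8 minus Ad-control, with its SE) of each tested initiation factor gene, from the RPKM as deposited and after median-of-ratios scaling, with the median of all 11998 tested genes as a dashed line. Eif1ad lies furthest left at -1.88 and Eif4ebp2 furthest right at 0.43, and 40 of the 53 genes lie left of the dashed line by the deposited values.

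At the cap, Eif4e fell together with 3 of its partners' genes while Eif4ebp2 rose. That is 4 falls and 1 rise among 7 tested genes, against 52% and 25.7% of all tested genes. After median-of-ratios scaling it is 4 falls and 2 rises, against 38.7% and 38.4%. Eif4e, the cap-binding protein, was at 8.87, 8.49, 8.82 and 8.77 RPKM in Ad-KLK8 libraries 1 to 4, against 16.3, 14.9, 15.8 and 15.8 RPKM in Ad-control libraries 1 to 4 (log2 change -0.78 ± 0.04 SE, adjusted p = 5.83e-08). Eif4enif1 (4E-T), which carries eIF4E to the nucleus and into P-bodies, was at 12.3, 11.0, 11.5 and 12.1 RPKM in Ad-KLK8 libraries 1 to 4, against 25.3, 24.4, 23.6 and 22.7 RPKM in Ad-control libraries 1 to 4 (log2 change -0.97 ± 0.05 SE, adjusted p = 3.24e-08). No Ad-KLK8 library reached an Ad-control library in either gene. Eif4ebp1, the most abundant 4E-BP transcript here per length, was at 81.6, 93.7, 74.9 and 79.5 RPKM in Ad-KLK8 libraries 1 to 4, against 131, 129, 121 and 157 RPKM in Ad-control libraries 1 to 4 (log2 change -0.70 ± 0.09 SE, adjusted p = 2.63e-05). Eif4ebp3, the rarest, was at 5.07, 4.74, 4.17 and 4.97 RPKM in Ad-KLK8 libraries 1 to 4, against 7.51, 8.70, 7.60 and 7.87 RPKM in Ad-control libraries 1 to 4 (log2 change -0.64 ± 0.07 SE, adjusted p = 7.00e-06). Both were lower in every Ad-KLK8 library. Eif4ebp2, the third of these repressors, was at 19.2, 21.0, 20.5 and 21.2 RPKM in Ad-KLK8 libraries 1 to 4, against 16.1, 13.9, 16.4 and 13.4 RPKM in Ad-control libraries 1 to 4 (log2 change 0.43 ± 0.07 SE, adjusted p = 1.48e-04), and was higher in every Ad-KLK8 library. These calls of the 4E-BP genes held under every alternative tried.

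Within libraries, the Eif4ebp2-to-Eif4ebp1 ratio of RPKM was 0.236, 0.224, 0.274 and 0.267 in Ad-KLK8 libraries 1 to 4, against 0.123, 0.108, 0.136 and 0.0858 in Ad-control libraries 1 to 4. These ratios could not overlap, because Eif4ebp2 was higher and Eif4ebp1 lower in every Ad-KLK8 library. The ratio of Eif4ebp1 to Eif4e was 9.20, 11.0, 8.49 and 9.07 in Ad-KLK8 libraries 1 to 4, against 8.03, 8.69, 7.64 and 9.89 in Ad-control libraries 1 to 4, and here the groups overlapped. Eif4e2 (4EHP), a cap-binding relative that does not bind eIF4G, averaged 13.0 ± 0.462 RPKM in Ad-KLK8 libraries and 13.5 ± 0.847 RPKM in Ad-control libraries (SD, n = 4 each; log2 change -0.048 ± 0.05 SE, adjusted p = 0.41); after median-of-ratios scaling it was called higher (0.16). Eif4e3, another relative, was at 3.01, 1.72, 2.98 and 2.87 RPKM in the Ad-KLK8 libraries and 2.94, 3.30, 2.58 and 3.99 RPKM in the Ad-control libraries (log2 change -0.21 ± 0.14 SE, adjusted p = 0.181), with Ad-KLK8 library 2 apart from the other 3.

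The Eif4ebp2 promoter is shown as that of the gene with the largest rise (GRCm38.p6, chr10:61452620-61452919, minus strand, same window). Capitals mark 1 match to CCGGAAG on the reverse strand, the same letters that occur in the promoter of Eif1ad.
Eif4ebp2: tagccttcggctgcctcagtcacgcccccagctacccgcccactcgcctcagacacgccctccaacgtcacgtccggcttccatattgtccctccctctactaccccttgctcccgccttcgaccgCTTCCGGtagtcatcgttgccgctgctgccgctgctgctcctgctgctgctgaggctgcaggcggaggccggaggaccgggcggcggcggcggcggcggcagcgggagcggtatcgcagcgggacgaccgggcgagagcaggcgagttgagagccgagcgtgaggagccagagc

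Of the 3 eIF4G scaffold genes, 2 fell. Eif4g2 (DAP5), which lacks the part that binds eIF4E, was at 122, 133, 126 and 124 RPKM in Ad-KLK8 libraries 1 to 4, against 183, 184, 184 and 171 RPKM in Ad-control libraries 1 to 4 (log2 change -0.51 ± 0.04 SE, adjusted p = 1.33e-06). Eif4g1, the main scaffold, averaged 86.9 ± 1.89 RPKM in Ad-KLK8 libraries and 99.6 ± 3.41 RPKM in Ad-control libraries (SD, n = 4 each; log2 change -0.19 ± 0.04 SE, adjusted p = 7.74e-04), and came out at 0.024 after median-of-ratios scaling, with no call. Eif4g3 averaged 21.6 ± 0.933 RPKM in Ad-KLK8 libraries and 20.1 ± 2.09 RPKM in Ad-control libraries (SD, n = 4 each; log2 change 0.10 ± 0.07 SE, adjusted p = 0.183), overlapped between the groups, and was called higher without Ad-control library 3 and after that scaling (0.31). Of these, Eif4g2 alone fell under both scalings.

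Genes around the cap and the poly(A) tail were set beside these. Of 11 tested, 9 fell and 2 rose, with a median of -0.27 and with 3 falls and 2 rises after median-of-ratios scaling. Over all tested genes 52% fell and 25.7% rose, with a median of -0.19. After that scaling 38.7% of all tested genes fell and 38.4% rose. Pdcd4, an inhibitor of eIF4A, averaged 9.56 ± 0.405 RPKM in Ad-KLK8 libraries and 4.36 ± 0.407 RPKM in Ad-control libraries (SD, n = 4 each; log2 change 0.98 ± 0.06 SE, adjusted p = 1.63e-07). Paip2b, an inhibitor of the poly(A)-binding protein, averaged 5.05 ± 0.359 RPKM in Ad-KLK8 libraries and 8.57 ± 0.463 RPKM in Ad-control libraries (log2 change -0.66 ± 0.06 SE, adjusted p = 1.98e-06). Of 10 genes of mTORC1 and its pathway, 1 rose, Mtor, and 6 fell, against 3 rises and 4 falls after scaling. Mtor, the kinase, averaged 11.7 ± 0.266 RPKM in Ad-KLK8 libraries and 10.4 ± 0.429 RPKM in Ad-control libraries (log2 change 0.15 ± 0.04 SE, adjusted p = 0.00944). Rheb, the GTPase that activates mTORC1, averaged 50.3 ± 2.20 RPKM in Ad-KLK8 libraries and 77.3 ± 1.702 RPKM in Ad-control libraries (log2 change -0.61 ± 0.04 SE, adjusted p = 2.16e-07), and Tsc1, of the complex that restrains Rheb, averaged 5.31 ± 0.317 RPKM in Ad-KLK8 libraries and 7.35 ± 0.276 RPKM in Ad-control libraries (log2 change -0.41 ± 0.05 SE, adjusted p = 4.21e-05). Members that promote and that restrain the pathway were both among the falls, in a comparison where 52% of all tested genes fell.

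**Figure D3:**
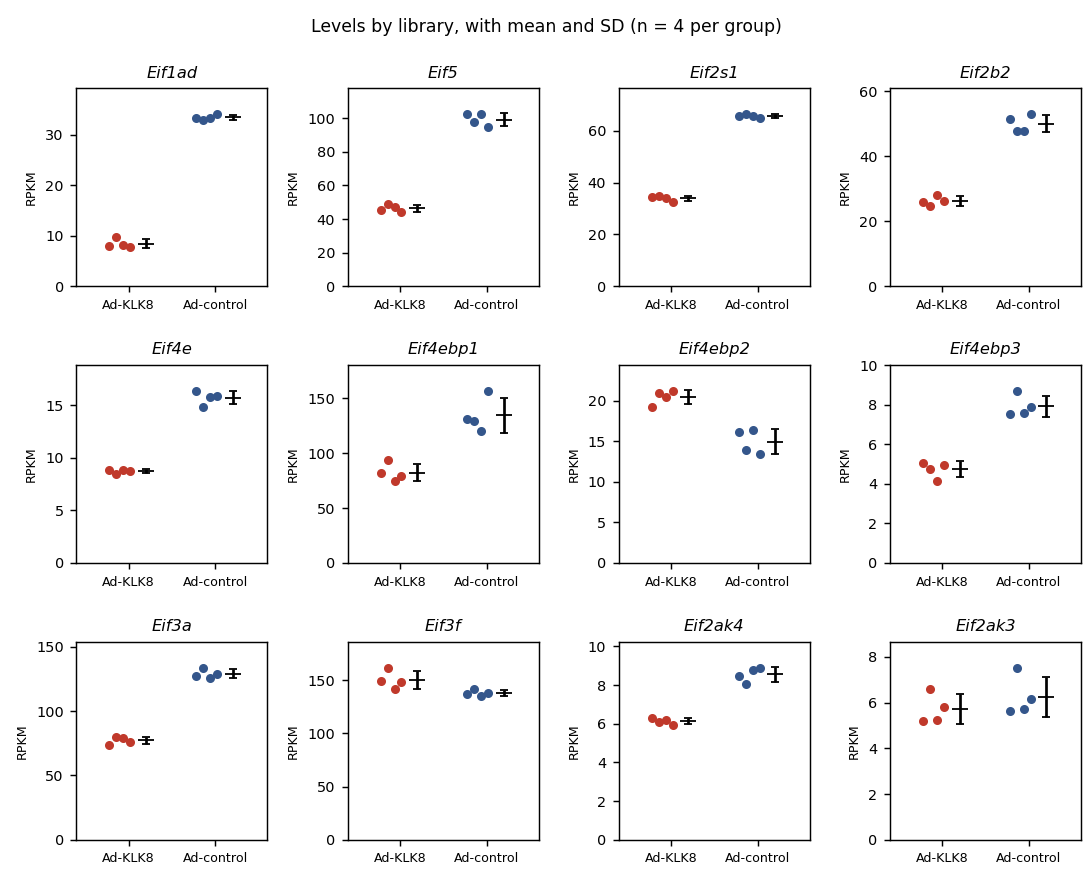
Level in RPKM (linear axis from 0) of Eif1ad, Eif5, Eif2s1, Eif2b2, Eif4e, the 3 4E-BP genes, Eif3a, Eif3f, Eif2ak4 and Eif2ak3 in each of the 4 Ad-KLK8 and 4 Ad-control libraries (points), with the mean and SD (bars). The ratio of the group means is furthest from 1 for Eif1ad, at a mean of 8.39 RPKM in Ad-KLK8 and 33.5 RPKM in Ad-control libraries.

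The genes of the eIF5 group and Eif6 were lower, except Eif5a2. In the same comparison 52% of all tested genes fell, and 38.7% after median-of-ratios scaling. Eif5, which makes eIF2 hydrolyse its GTP at the start codon, was at 45.3, 48.8, 47.3 and 44.3 RPKM in Ad-KLK8 libraries 1 to 4, against 102, 97.6, 102 and 94.6 RPKM in Ad-control libraries 1 to 4. Its mean fell by 53.2% (log2 change -1.08 ± 0.04 SE, adjusted p = 8.37e-09), the second largest change among the members. Eif5b, the GTPase that joins the large subunit, changed by -0.42, and Eif5a, the hypusine-carrying factor now known for its part in elongation, by -0.48, both of them falls under either scaling. The Eif5a-to-Eif5 ratio of RPKM was 4.72, 4.94, 4.43 and 4.75 in Ad-KLK8 libraries 1 to 4, against 2.92, 3.22, 2.95 and 3.21 in Ad-control libraries 1 to 4. Eif5a2, the low paralog of Eif5a, averaged 2.93 ± 0.156 RPKM in Ad-KLK8 libraries and 2.94 ± 0.0105 RPKM in Ad-control libraries (SD, n = 4 each; log2 change -0.0033 ± 0.05 SE, adjusted p = 0.957), and was called higher after median-of-ratios scaling (0.16). Eif6, which holds the large subunit apart until it is mature, was at 67.8, 70.1, 66.4 and 70.5 RPKM in Ad-KLK8 libraries 1 to 4, against 112, 117, 116 and 119 RPKM in Ad-control libraries 1 to 4 (log2 change -0.74 ± 0.04 SE, adjusted p = 2.89e-08). It fell under every scaling, with no overlap.

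Of 59 tested translation genes that are not initiation factors by name, 40 fell and 10 rose, against 24 falls and 15 rises after median-of-ratios scaling. By the deposited values that is 67.8% lower and 16.9% higher, against 52% and 25.7% of all tested genes. After scaling it is 40.7% lower, near the 38.7% of all tested genes, and 25.4% higher, against 38.4%. The list of start codon and recycling partners had 6 falls, no rise and 1 gene without a call among 7, before and after scaling, with a median of -0.82. Of these, Ltv1, needed to mature the small subunit, averaged 8.76 ± 0.684 RPKM in Ad-KLK8 libraries and 21.8 ± 0.606 RPKM in Ad-control libraries (SD, n = 4 each; log2 change -1.23 ± 0.05 SE, adjusted p = 1.37e-08), and Abce1, which splits ribosomes after termination, averaged 33.9 ± 2.14 RPKM in Ad-KLK8 libraries and 60.5 ± 1.05 RPKM in Ad-control libraries (log2 change -0.82 ± 0.05 SE, adjusted p = 7.49e-08). Elongation genes were mixed, with 5 falls, 3 rises and 3 uncalled of 11 (3 falls and 5 rises after scaling). The smallest adjusted p there came from Eef1e1, a part of the tRNA synthetase complex, at 18.4 ± 1.94 RPKM in Ad-KLK8 libraries and 40.2 ± 2.95 RPKM in Ad-control libraries (log2 change -1.09 ± 0.07 SE, adjusted p = 2.83e-07), and Eefsec, the selenocysteine elongation factor, at 5.10 ± 0.414 RPKM in Ad-KLK8 libraries and 9.12 ± 0.245 RPKM in Ad-control libraries (log2 change -0.73 ± 0.06 SE, adjusted p = 7.63e-07). The 3 rises, named after their values were seen, were Eef1a1, Eef1a2 and Eef1g, with log2 changes of 0.31, 0.28 and 0.13.

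Of 3 termination genes 2 fell and 1 rose under either scaling. Etf1, the release factor that reads stop codons, averaged 72.3 ± 1.71 RPKM in Ad-KLK8 libraries and 99.0 ± 4.18 RPKM in Ad-control libraries (SD, n = 4 each; log2 change -0.45 ± 0.04 SE, adjusted p = 2.31e-06), and Gspt2, a GTPase that works with it, averaged 2.04 ± 0.308 RPKM in Ad-KLK8 libraries and 3.14 ± 0.687 RPKM in Ad-control libraries (log2 change -0.44 ± 0.11 SE, adjusted p = 0.00496). Of 9 genes of mitochondrial translation 6 fell and 1 rose, against 3 falls and 2 rises after scaling. For both lists the shares over all tested genes are 52% lower and 25.7% higher, and 38.7% and 38.4% after scaling. Gfm1, the mitochondrial elongation factor G, averaged 11.2 ± 0.441 RPKM in Ad-KLK8 libraries and 18.8 ± 0.390 RPKM in Ad-control libraries (log2 change -0.69 ± 0.04 SE, adjusted p = 1.08e-07). Mtrf1l, a mitochondrial release factor, averaged 3.07 ± 0.144 RPKM in Ad-KLK8 libraries and 6.54 ± 0.426 RPKM in Ad-control libraries (log2 change -0.89 ± 0.06 SE, adjusted p = 1.88e-07).

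**Figure D4:**
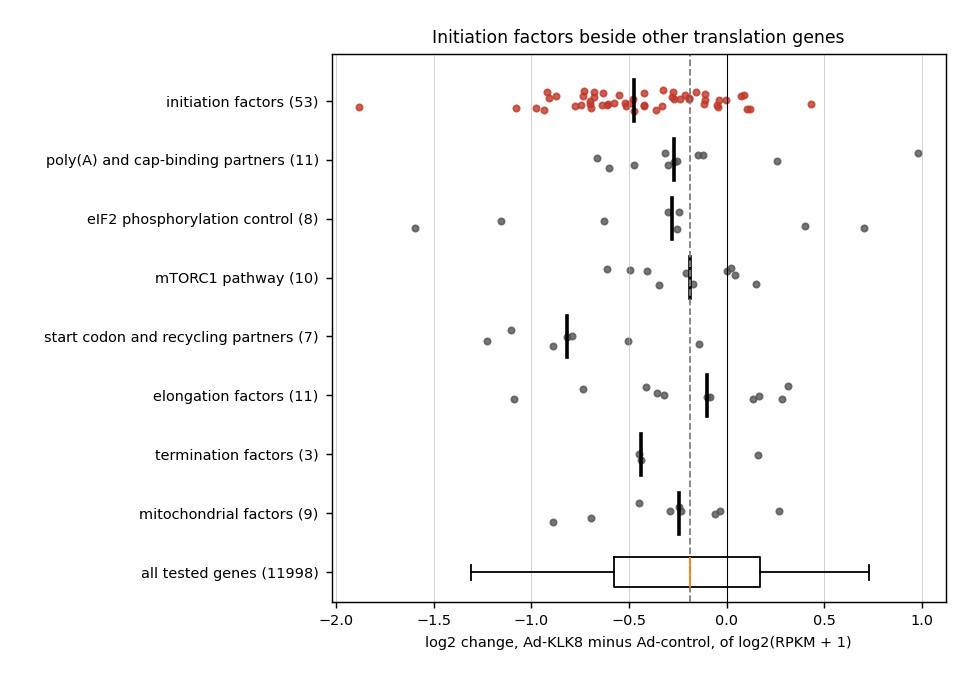
Log2 change (Ad-KLK8 minus Ad-control, of the deposited RPKM + 1) of the tested genes in each list of other translation genes, beside the initiation factors, with a black bar at each median, a box (quartiles, whiskers from the 5th to the 95th percentile) for all tested genes, and their median as a dashed line. The list of start codon and recycling partners has its median at -0.82, the initiation factors at -0.47 and the elongation factors at -0.10.

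RefSeq promoter windows were found for 42 of the 54 members. A match to CCGGAAG on either strand occurred in 14 of 42 (33.3%), against 18.7% of the 9631 promoters of tested genes and 9.12% of all 27025 promoters. Among its holders were Eif1ad and Eif2b2, with large falls, Eif4ebp2, which rose, and Eif2ak1, Eif4e2 and Eif5a2, which were not called. CACGTG, which reads the same on both strands, occurred in 8 of 42 (19.0%), against 10.4% of tested genes' promoters and 7.24% of all, and its holders ran from Eif3a at -0.73 to Eif3f at 0.12. CCAAT on either strand occurred in 13 of 42 (31.0%), against 39.1% and 37.9%, and the NRF1 motif in 1 (2.38%), against 2.16% and 0.977%. TGACGTCA occurred in none of these windows, against 3.42% and 1.88%. No motif holds the letters of another. The motifs were chosen with the genes' changes known, and a match is a description of letters, not a bound site.

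mRNAs with a pyrimidine tract at their very start are known to be translated under mTORC1's control, so the stretch around the start was searched too. A run of at least 8 C or T letters within 20 bases of the annotated start occurred in 8 of 42 members (19.0%), against 15.3% of tested genes' promoters and 15.9% of all. These 8 were Eif2b2, Eif2b5, Eif2s3x, Eif2s3y, Eif3l, Eif3m and Eif4enif1, which fell by the deposited values, and Eif3f, which rose. The 40 bases around the start are shown for 3 members that fell and for Eif3f, as runs near the start occurred in both (GRCm38.p6). They are Eif2b5 (chr16:20498797-20498836, plus strand), Eif2s3x (chrX:94212632-94212671, minus strand), Eif3f (chr7:108934395-108934434, plus strand) and Eif3m (chr2:105017008-105017047, minus strand). The start lies between bases 20 and 21, and capitals mark the run. The runs of Eif2b5, Eif2s3x and Eif3f cross the start, with most of the Eif2b5 run before it. The run of Eif3m begins at the window's edge and ends before the start, so it lies outside the annotated mRNA. The search thus did not require a run at the very start of the mRNA.
Eif2b5: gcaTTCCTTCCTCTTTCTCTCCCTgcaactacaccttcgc
Eif2s3x: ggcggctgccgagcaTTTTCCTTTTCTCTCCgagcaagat
Eif3f: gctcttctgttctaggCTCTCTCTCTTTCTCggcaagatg
Eif3m: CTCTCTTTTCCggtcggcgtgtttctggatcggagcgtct
The runs hold 21, 16, 15 and 11 letters in that order, beside log2 changes of -0.52, -0.70, 0.12 and -0.11.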

How the data were processed

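Total RNA was extracted with TRIzol and made into stranded mRNA libraries, per the labels' protocols. The authors deposited RPKM values, and no further scaling between libraries is stated. The tools named, per the submitters' processing notes, are HISAT2, Cufflinks, Trimmomatic, SAMtools and DESeq, without versions or roles, and the build named there is the human GRCh38, although the genes are mouse. No coordinates were taken from the files for this reason. Promoters are RefSeq's (GRCm38.p6).

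RPKM values of the 17461 genes above 0 were whole multiples of 1 read within 0.001 read, and the smallest fitting whole numbers were taken as reads, so read totals are lower bounds where a gene's reads share a factor. Members had a median of 1974 reads per library (lowest 77). Groups were compared on log2(RPKM + 1) with limma 3.58.1 under R 4.3.3 (two-sided, lmFit, eBayes with trend), for 11998 genes that averaged at least 0.5 RPKM, with group as the only term and Benjamini-Hochberg adjustment over all of them at 0.05. Changes of low genes come out too small on this scale. Klk8 had an exact permutation test (Python 3.11.15, scipy 1.17.1). Scripts were tested on simulated data.

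Members, gene lists and ratios were chosen with earlier results of these data known. Named in full are, per factor, the largest called rise and fall (2 each in groups of at least 5), all eIF2 subunits, eIF2 kinases and 4E-BP genes. Uncalled members are named with values. From other lists the 2 smallest adjusted p are named, plus Atf4, Ppp1r15a and Mtor, and the rises said above to be named after their values were seen. Alternatives were other pseudocounts, filters, scalings and priors, array weights, voom on recovered reads, a replicate block and leaving out each library. Averaging closely similar libraries (2 against 3 remained) was added after seeing the data.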

Additional observations from a re-analysis of the deposited data

Results flagged for a closer look

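A sample far from the other 3 of its group, by Dixon's criterion at the 95% level, occurred in 10 of 106 groups of values (9.43%), where chance gives about 1 in 20, and 6 of the 10 were Ad-KLK8 library 2. In that library Eif1 was at 188 RPKM against 156 to 159.6 RPKM in the other Ad-KLK8 libraries, Eif3c at 139 against 123 to 125 RPKM, Eif3k at 110.5 against 102 to 103 RPKM, Eif4b at 129.97 against 115 to 116 RPKM and Eif5a at 241 against 209.6 to 214 RPKM. Eif4e3 was low there, at 1.72 RPKM against 2.87 to 3.01 RPKM. In Ad-KLK8 library 1, Eif2d was at 6.67 RPKM against 7.01 to 7.04 RPKM in the others. In Ad-control library 4, Eif1b was at 57.7 RPKM against 42.7 to 43.9 RPKM, Eif4g1 at 94.6 against 101 to 102 RPKM and Eif4g2 at 170.5 against 183 to 184 RPKM. Leaving out any of these libraries left the calls of these genes as they were.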

How the results depend on the processing

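Of the 53 tested members, 32 kept their direction and their side of the threshold under every alternative tried that gave them a value. The number of members that fell was 32 to 43 (40 to 42 with a library left out). The number that rose was 2 by the deposited values, 9 with upper-quartile, 10 with median-of-ratios and 6 with quantile scaling, 1 with TPM, 1 with closely similar libraries averaged, and 1 to 3 with a library left out. The members' median log2 change was -0.36 with a pseudocount of 5, -0.30 with upper-quartile, -0.26 with median-of-ratios and -0.37 with quantile scaling. Over all genes, 4877 rose with quantile scaling and 4091 fell among genes of at least 5 RPKM, where fewer genes were tested. Of the other translation genes, 24 fell with median-of-ratios scaling. Signs turned with upper-quartile scaling for Eif2ak1 (0.13), Eif2ak3 (0.046), Eif3h (0.067), Eif3i (0.13), Eif3m (0.066), Eif4e2 (0.12), Eif4h (0.025) and Eif5a2 (0.13), and with median-of-ratios scaling for Eif2ak1 (0.17), Eif2ak3 (0.080), Eif3h (0.11), Eif3i (0.17), Eif3k (0.024), Eif3m (0.10), Eif4e2 (0.16), Eif4g1 (0.024), Eif4h (0.064) and Eif5a2 (0.16). They turned with quantile scaling for Eif2ak1 (0.15), Eif2ak3 (0.16), Eif4e2 (0.18), Eif4e3 (0.10) and Eif5a2 (0.30), with averaged libraries for Eif2ak1 (0.020) and Eif5a2 (0.00575), and for Eif5a2 without Ad-KLK8 library 1 or 3 (range over libraries left out -0.025 to 0.016). Klk8 turned to -0.036 without Ad-KLK8 library 2, with a range of -0.036 to 0.46 over libraries left out. The cause of these moves was not tested. Replicate numbers did not pair the libraries (correlations of same-numbered deviations -0.09 to 0.01), and with the replicate block 41 members fell and 2 rose, with the call of Eif3m lost.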
